A study of Mus musculus with 7 samples.

Results

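Genes of the intestinal lining were read at low levels in every marrow library, and a set of 32 of them is described here. They mark the absorptive cell of the small intestine (enterocyte) or simple epithelium in general, and were taken by symbol and found in the count table through their Ensembl IDs. The members were chosen by their difference between knockout and control marrow in these same libraries, so that difference is given as a description. Calls from fits over all genes are printed for members, but nothing is read from them. All 32 were found among the 49315 genes of the table, and all 32 passed the filter on low counts, also on the control libraries alone.

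The libraries are poly(A)-selected RNA of mouse bone marrow after chow feeding and surgery that cuts off blood flow to a hindlimb. The KO group has 4 libraries, of genotype miR-181a2b2-/-, which lacks a pair of microRNAs on chromosome 2. The flox group has 3 libraries, of genotype miR-181a2b2flox/flox, with the same cluster flanked by recombination sites, and the titles call it WT. The labels name neither the promoter of any recombinase, nor the age or the strain of the mice, nor whether each library is a separate animal, so the spread between libraries may be partly technical. The labels give marrow as the source while their extraction text speaks of white adipose tissue.

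An enterocyte carries a dense border of microvilli on the side facing the gut lumen. Enzymes anchored there finish the digestion of sugars and peptides, transporters and binding proteins take up lipids, amino acids, vitamins and bile acids, and keratins and cadherins hold the cell in its sheet. In adult mice these genes are used in the small intestine, several are shared with kidney tubule or liver, and Enpep is also a surface antigen of early B cells in marrow. Expression is given as CPM, the count divided by the library total in megareads, with totals scaled by the trimmed mean of M-values, and a fold change is log2, KO minus flox, from an edgeR fit over all genes.

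Totals ran from 43110251 to 48320848 counts in KO and from 46151300 to 51688514 in flox. Of these, members held 0.0233% to 0.0315% in KO and 0.0121% to 0.0137% in flox, and a member's count in 1 library lay between 14 and 2246. Blood genes set the scale: S100a8, a neutrophil calcium-binding protein, stood at 7090 ± 744 CPM in KO and 9320 ± 2080 CPM in flox (SD, n = 4 and 3), and Ptprc, the pan-leukocyte phosphatase, at 743 ± 55.9 CPM in KO and 787 ± 30.5 CPM in flox. These genes show leukocyte RNA in every library, and by themselves they do not settle the tissue label. Cd79a, part of the B cell receptor and named after its values were seen, had 169, 137, 163 and 151 CPM in KO and 11.8, 87.1 and 126 CPM in flox (log2 fold change 1.04, SE 0.71, edgeR adjusted p = 0.587), with no overlap and flox 1 far the lowest. The part of B cells in the member levels was not tested. Among the fat cell genes, Fabp4, a fatty acid binding protein of adipocytes, averaged 34 ± 8.54 CPM in KO and 38.9 ± 15.5 CPM in flox, and Adipoq, an adipocyte hormone, ranged from 4.22 to 11.8 CPM in KO and from 5.64 to 19.7 CPM in flox. Flox 1 stood apart on the first principal component, at -58.7 against 16.6 to 23.2 in KO and -14.2 and -5.48 in the other flox libraries.

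The genes removed in KO, Mir181a-2 and Mir181b-2, and the paralogs Mir181a-1 and Mir181b-1 at another locus, had 0 counts in each of the 7 libraries. Poly(A) selection does not capture such short RNAs, so these zeros do not check the genotype labels. Mature miR-181a and miR-181b pair with transcripts through bases 2 to 8 (the seed, in capitals). Both arms below are RefSeq sequences on GRCm38.p6, plus strand, and share 1 seed; miR-181a lies at chr2:38852741-38852763 and miR-181b at chr2:38853845-38853868. The pairing site was searched as TGAATGT in the longest GENCODE M21 3' UTR of each gene, and it occurred in 2 of 32 members (6.25%) against 18.5% of the 14297 tested genes with a 3' UTR. Member 3' UTRs were shorter, with a median of 410 bases against 1302, and a match of letters is not a measured target. The pair of members with a match are Slc10a2, the ileal bile acid transporter, at chr8:5085024-5085050 (minus strand), and Slc6a19, a neutral amino acid transporter, at chr13:73681526-73681552 (minus strand); both are printed with the match in capitals.
miR-181a-5p: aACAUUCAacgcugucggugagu
miR-181b-5p: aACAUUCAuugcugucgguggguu
Slc10a2 site: ttgatgtgaaTGAATGTattcctctga
Slc6a19 site: gtaatatgtgTGAATGTgtgagtacag

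Added over all members, the level was 248, 311, 258 and 229 CPM in KO 1 to KO 4, against 130, 123 and 135 CPM in flox 1 to flox 3. The lowest KO library lay above the highest flox library. The means were 261 ± 35.2 CPM in KO and 129 ± 6.05 CPM in flox, a ratio of 2.02. In bulk RNA, fewer cells of a type and less RNA per cell cannot be told apart. By gene, KO was the higher group for 31 of 32 members; the middle estimate was 1.15 on the log2 scale and the range -0.39 to 1.83, beside a median of -0.00797 over all 17920 genes tested. Without flox 1 the member median was 1.16. The edgeR test called 20 of the 32 higher, where 0.134% of all genes were called higher and 0.0112% lower. That 0.134% is 24 genes, these 20 members and 4 goblet cell genes, so it is not a separate background. DESeq2 called 28 of the members, beside 1.36% of all genes. In 29 members every KO library exceeded every flox library, a pattern seen in 6.22% of tested genes. Since the members were picked on this contrast, nothing is read from these counts. The count of 20 rests on each library: leaving out flox 1 gave 9, flox 2 gave 2 and flox 3 or KO 4 gave 1, and leaving out KO 1, KO 2 or KO 3 gave 0. The edgeR p before adjustment was under 0.05 for 28 to 32 members in each of these fits (14.1% of all genes in the fit on all libraries). These p-values are low by the choice of members too, so they do not measure stability.

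**Figure D1:**
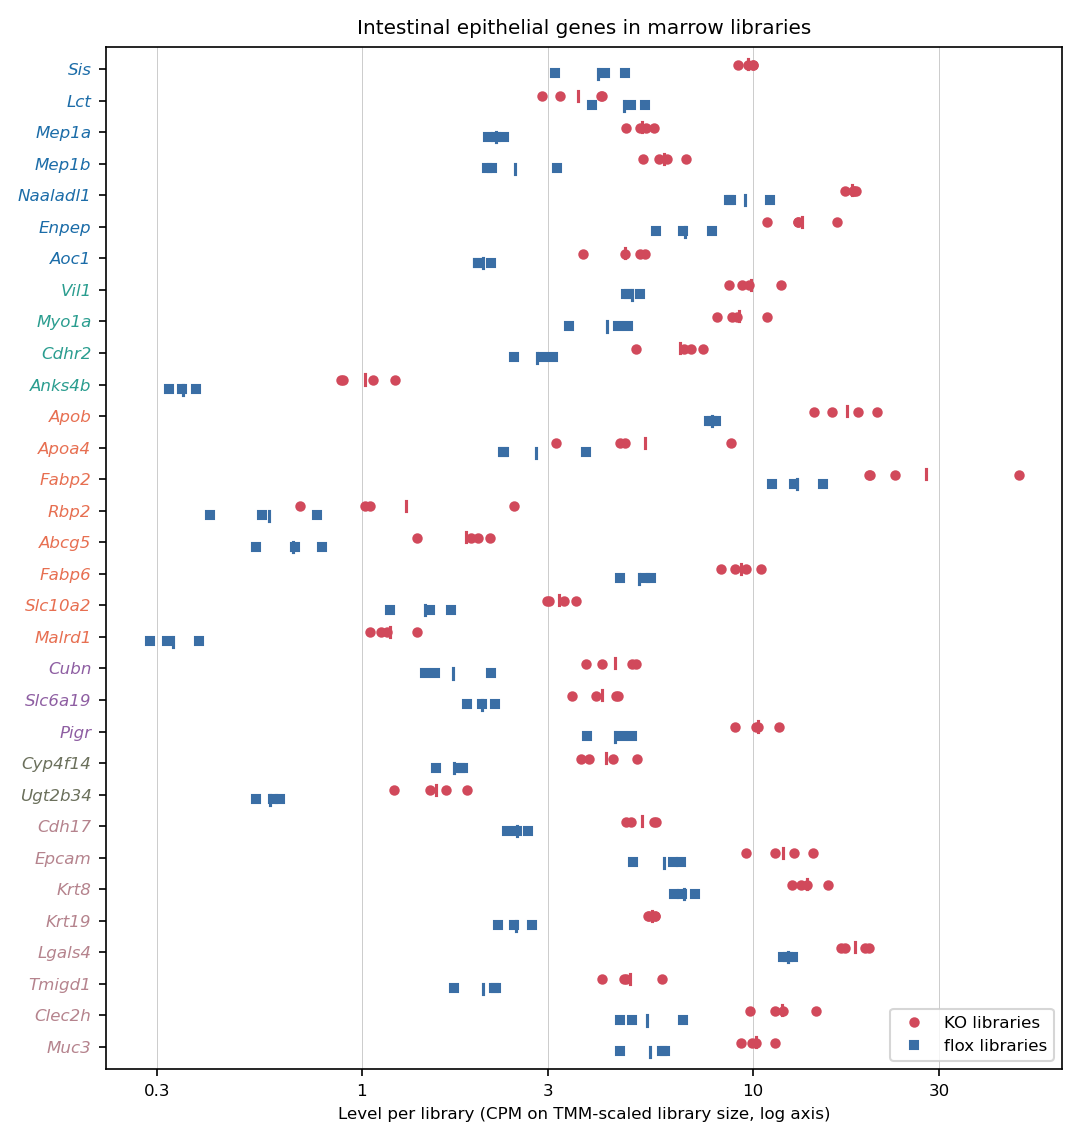
Level of each of the 32 genes in CPM (log axis), with KO libraries as circles above flox libraries as squares and vertical ticks at the group means; label colours mark the roles. Only Lct, Apoa4 and Rbp2 have overlapping groups, and Lct alone has its KO mean to the left.

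The 7 digestive enzymes of the microvilli summed to 60.6 ± 4.12 CPM in KO and 31.7 ± 1.31 CPM in flox, with 6 higher in KO, 5 of them called by edgeR, and 1 lower. Here and for the roles below, calls and separated groups follow from the choice of members. Over all genes, 0.134% were called higher and 6.22% had every KO library above every flox library. Naaladl1, an intestinal peptidase, had the highest level among them also per exon length, with 18.4, 18.1, 18.2 and 17.2 CPM in KO 1 to KO 4 and 8.82, 8.73 and 11.1 CPM in flox 1 to flox 3. Its KO libraries agreed closely, with a coefficient of variation of 2.93% against 14.2% in flox. Enpep, aminopeptidase A, which trims acidic residues from peptides, read 13.1, 13.1, 16.4 and 10.9 CPM in KO and 5.68, 6.64 and 7.86 CPM in flox. Its flox libraries stood in the same order as for Cd79a, an order that Mep1a and Krt8 among other members had too. The KO libraries differed in order, with Enpep highest in KO 3 and lowest in KO 4, and Cd79a highest in KO 1 and lowest in KO 2. The log2 fold change of Enpep was 0.99 (SE 0.16), or 0.88 without flox 1. Sis (chr3:72888557-72967863, GRCm38), sucrase-isomaltase, which splits sucrose and starch products, read 9.17, 10, 10 and 9.72 CPM in KO and 4.20, 4.73 and 3.12 CPM in flox, a log2 fold change of 1.28 (SE 0.16). For all 3 enzymes the groups were fully separated, with KO the higher.

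Mep1a and Mep1b encode the subunits of meprin, a metalloprotease of the brush border. Mep1b had 5.78, 6.74, 6.03 and 5.26 CPM in KO and 2.09, 3.16 and 2.16 CPM in flox. Mep1a averaged 5.22 ± 0.356 CPM in KO and 2.21 ± 0.0982 CPM in flox, so the subunits differed by nearly the same log2 amount, 1.24 (SE 0.14) for Mep1a and 1.27 (SE 0.19) for Mep1b. Aoc1, the diamine oxidase that breaks down histamine, averaged 4.72 ± 0.733 CPM in KO and 2.04 ± 0.0849 CPM in flox.

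Lct (chr1:128284756-128328318, GRCm38), the lactase of milk sugar, went the other way. It had 4.09, 4.12, 2.89 and 3.21 CPM in KO and 5.32, 4.88 and 3.89 CPM in flox. The groups overlapped, since KO 1 and KO 2 lay above flox 3, and the log2 fold change was -0.39 (SE 0.18). Lct made up 1.12% to 1.65% of the summed member level in KO and 2.89% to 4.09% in flox, whereas Sis made up 3.22% to 4.25% in KO and 2.32% to 3.86% in flox. The summed level is higher in KO by the choice of members, so the share of any gene that does not rise with it falls.

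Sis and Lct are textbook targets of the gut factors CDX2, HNF1 and GATA4, so their promoters are shown for the pair of sugar enzymes with estimates of opposite sign, together with those of the bile acid genes Slc10a2 and Fabp6. Each run is the 250 bases before the RefSeq start site on GRCm38.p6, given 5' to 3' on the minus strand, from chr3:72967864-72968113 (Sis), chr1:128328319-128328568 (Lct), chr8:5105288-5105537 (Slc10a2) and chr11:43601563-43601812 (Fabp6). Capitals mark matches on either strand. The CDX core was searched as TTTATG. The core of the HNF1 site was searched as GTTAAT. The GATA site was searched as AGATAA. None of these matches overlap in the runs printed.
Sis: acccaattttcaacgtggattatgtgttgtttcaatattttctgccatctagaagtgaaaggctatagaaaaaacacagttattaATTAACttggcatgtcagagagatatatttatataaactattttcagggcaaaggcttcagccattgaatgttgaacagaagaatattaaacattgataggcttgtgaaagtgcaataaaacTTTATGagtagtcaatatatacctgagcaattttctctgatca
Lct: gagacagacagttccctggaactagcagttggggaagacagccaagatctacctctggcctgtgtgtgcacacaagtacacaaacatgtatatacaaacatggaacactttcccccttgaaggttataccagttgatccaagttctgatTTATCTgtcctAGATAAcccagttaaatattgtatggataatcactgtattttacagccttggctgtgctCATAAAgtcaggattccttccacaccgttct
Slc10a2: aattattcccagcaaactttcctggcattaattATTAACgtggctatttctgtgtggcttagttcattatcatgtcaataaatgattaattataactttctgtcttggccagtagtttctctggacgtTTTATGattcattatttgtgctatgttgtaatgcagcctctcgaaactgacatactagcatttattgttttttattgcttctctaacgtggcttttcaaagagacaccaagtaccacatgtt
Fabp6: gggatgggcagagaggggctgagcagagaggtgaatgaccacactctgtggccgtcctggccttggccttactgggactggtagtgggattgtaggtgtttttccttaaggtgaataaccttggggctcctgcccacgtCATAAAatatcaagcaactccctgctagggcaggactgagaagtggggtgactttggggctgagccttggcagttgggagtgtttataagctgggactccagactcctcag

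In Sis the CDX match begins 43 bases before the start site and the HNF1 match 165 bases before it. Lct has a CDX match beginning 31 bases upstream and a pair of GATA matches beginning 90 and 101 bases upstream. Of 27 members with a promoter in the RefSeq table, 6 held the CDX letters within 250 bases before to 50 after the start (22.2%, against 12.1% of 27025 promoters), 4 the HNF1 letters (14.8% against 7.2%) and 4 the GATA letters (14.8% against 11.4%). The longer HNF4 letters CAAAGTCCA were in 0 of the 27 and in 0.477% of all promoters. A match is a description of letters and not a bound site.

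The 4 genes of the microvillus core and its tip links were all higher in KO without overlap, 3 of them called by edgeR, and summed to 26.7 ± 3.33 CPM in KO and 12.3 ± 0.841 CPM in flox. Vil1, villin, which bundles actin inside microvilli, had 9.82, 11.8, 9.38 and 8.69 CPM in KO and 4.84, 4.75 and 5.15 CPM in flox. Myo1a, the myosin that ties that bundle to the membrane, had 9.11, 10.9, 8.85 and 8.13 CPM in KO and 4.80, 3.40 and 4.53 CPM in flox. Cdhr2, a protocadherin linking neighbouring microvilli, had 7.48, 6.95, 6.67 and 5.03 CPM in KO and 2.45, 2.91 and 3.08 CPM in flox. KO 2 was the highest library for villin and Myo1a, and KO 4 the lowest for these 3 genes.

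Anks4b, a scaffold at the microvillus tips, was the rarest of the group, at 0.885, 1.22, 0.898 and 1.07 CPM in KO and 0.378, 0.348 and 0.321 CPM in flox. Its log2 fold change of 1.53 (SE 0.25) rests on 42 to 57 counts per KO library and 15 to 19 per flox library. Its partners in the tip complex outside the member list, chosen after their values were seen, had similar estimates that did not pass the edgeR test over all genes: Cdhr5 gave 1.20 (SE 0.20, adjusted p = 0.0617), Myo7b 1.13 (SE 0.23, adjusted p = 0.126) and Ush1c 1.01 (SE 0.25, adjusted p = 0.173).

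**Figure D2:**
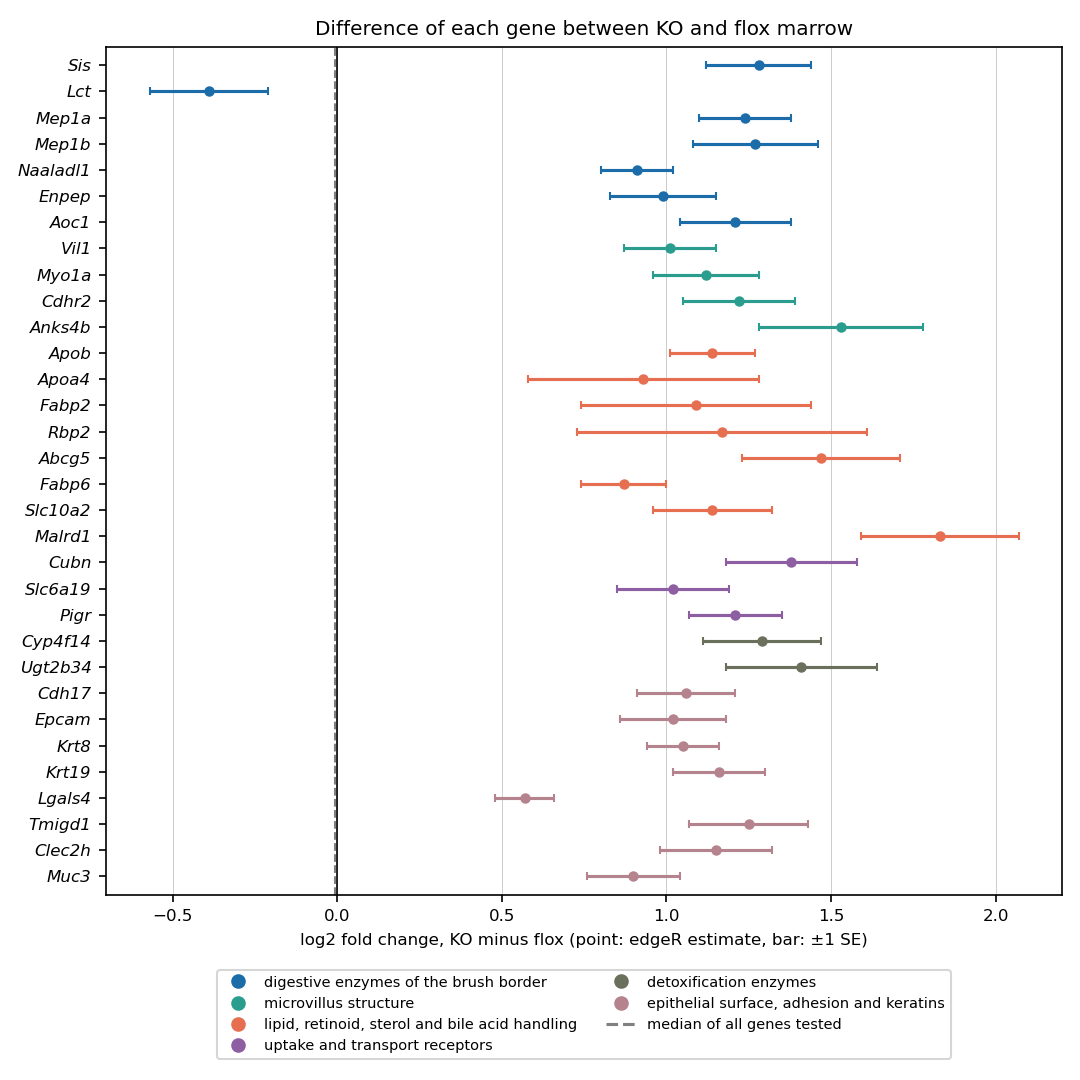
Log2 fold change of each gene, KO minus flox, with 1 standard error, coloured by role; the dashed line is the median of all genes tested. Estimates run from -0.39 for Lct to 1.83 for Malrd1, and the members other than Lct lie at 0.57 or more.

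The 8 genes of lipid, retinoid, sterol and bile acid handling were all higher in KO, 3 of them called by edgeR, with sums of 67.4 ± 19.6 CPM in KO and 31.9 ± 3.22 CPM in flox. Apob, the scaffold protein of chylomicrons, had 18.6, 20.8, 16 and 14.4 CPM in KO and 8.07, 7.75 and 7.86 CPM in flox. Its flox libraries varied by a coefficient of only 2.06%, the lowest of any member in flox. Abcg5, which pumps plant sterols back into the lumen as a dimer with Abcg8, averaged 1.85 ± 0.323 CPM in KO and 0.668 ± 0.127 CPM in flox (log2 fold change 1.47, SE 0.24). Its partner gene Abcg8, named after its value was seen, gave 1.62 (SE 0.29, edgeR adjusted p = 0.0924). The exons of this pair overlap on opposite strands over 3.02% of the Abcg5 exons, and whether counting used strand is not stated in the sources used here.

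Fabp2 (chr3:122895072-122899506, GRCm38), the fatty acid binding protein of the enterocyte cytosol, was the most abundant member per length. It had 19.8, 47.9, 23.2 and 20 CPM in KO and 12.8, 11.2 and 15.1 CPM in flox. KO 2 lay at more than the sum of the next 2 KO libraries, and yet the groups did not overlap. Apoa4, an apolipoprotein of chylomicrons, had 3.14, 8.81, 4.72 and 4.57 CPM in KO and 2.31, 2.30 and 3.76 CPM in flox. Rbp2, which carries retinol inside the enterocyte, had 0.696, 2.45, 1.05 and 1.02 CPM in KO and 0.558, 0.410 and 0.769 CPM in flox. For Apoa4 and Rbp2, KO 2 was again the highest library and KO 1 lay below flox 3. A further limit on Apoa4 is that 34.9% of its exon bases are shared with an antisense model.

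Together Fabp2, Apoa4 and Rbp2 summed to 23.6, 59.2, 28.9 and 25.6 CPM in KO and 15.7, 13.9 and 19.6 CPM in flox. The other 28 members without Lct summed to 220, 248, 226 and 200 CPM in KO and 109, 104 and 111 CPM in flox. KO 2 led by far more in the first sum than in the second. That follows from the grouping, since Fabp2, Apoa4 and Rbp2 are the members furthest above the KO mean in KO 2. Among the listed non-members, Apoa1, another apolipoprotein of the same particles, named after its values were seen, had 25.1, 42.5, 28.1 and 22.9 CPM in KO and 14.9, 11.0 and 17.9 CPM in flox.

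Bile acid genes belong to the end of the small intestine. Fabp6, the ileal bile acid binding protein, had 8.29, 10.5, 9.04 and 9.61 CPM in KO and 5.50, 4.59 and 5.30 CPM in flox, a log2 fold change of 0.87 (SE 0.13). Slc10a2 averaged 3.20 ± 0.258 CPM in KO and 1.45 ± 0.261 CPM in flox (1.14, SE 0.18). Malrd1 (chr2:15526479-16255555, GRCm38), which in mouse affects bile acid levels, averaged 1.18 ± 0.149 CPM in KO and 0.330 ± 0.0498 CPM in flox. It had the highest estimate of all members, 1.83 (SE 0.24), from 49 to 65 counts per KO library and 14 to 18 per flox library.

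The 3 uptake genes, 2 of them called by edgeR, summed to 18.9 ± 1.58 CPM in KO and 8.2 ± 0.843 CPM in flox. Pigr, which carries immunoglobulin A across the epithelium, had 9, 11.7, 10.2 and 10.3 CPM in KO and 4.92, 4.65 and 3.78 CPM in flox. Cubn, the receptor for vitamin B12 bound to intrinsic factor, had 5.04, 4.91, 4.13 and 3.76 CPM in KO and 2.15, 1.54 and 1.45 CPM in flox. Slc6a19 had 3.98, 4.48, 4.53 and 3.46 CPM in KO and 2.03, 1.86 and 2.20 CPM in flox. The fold ratios of means ran from 2.02 for Slc6a19 to 2.60 for Cubn.

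Both detoxification enzymes were low and had separated groups, and only Cyp4f14 was called by edgeR. Cyp4f14, a cytochrome of lipid mediators, had 3.82, 5.05, 4.40 and 3.64 CPM in KO and 1.55, 1.82 and 1.79 CPM in flox. Ugt2b34, a glucuronosyltransferase, had 1.64, 1.86, 1.5 and 1.21 CPM in KO and 0.538, 0.594 and 0.620 CPM in flox. Both belong to families of similar genes, as does the lectin gene Clec2h, and the sources used here do not say how reads with several mapping places were treated, so their single values are uncertain.

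The 8 surface, adhesion and keratin genes summed to 82 ± 8.02 CPM in KO and 42.8 ± 2.57 CPM in flox, all separated and 6 called by edgeR. Lgals4, a galectin of lipid rafts in the brush border, had 17.2, 19.9, 19.4 and 16.8 CPM in KO and 12, 12.3 and 12.7 CPM in flox. Its log2 fold change of 0.57 (SE 0.09) was the smallest of the positive estimates. Krt8, a keratin of simple epithelia, had 12.6, 15.6, 13.8 and 13.3 CPM in KO and 6.31, 6.62 and 7.14 CPM in flox. Its usual filament partner Krt18, a non-member named after its values were seen, read 3.78 ± 1.35 CPM in KO and 3.72 ± 0.766 CPM in flox (0.02, SE 0.27, edgeR adjusted p = 0.985). Krt20, another non-member keratin named late, read 6.58 ± 2.01 CPM in KO and 3.3 ± 0.61 CPM in flox (0.99, SE 0.24, edgeR adjusted p = 0.166).

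Epcam, the epithelial adhesion molecule, had 11.4, 14.3, 12.8 and 9.61 CPM in KO and 6.25, 4.96 and 6.56 CPM in flox. Clec2h, a C-type lectin of intestinal epithelium, had 12, 14.5, 11.4 and 9.88 CPM in KO and 6.63, 4.57 and 4.91 CPM in flox. The groups of both genes stood clear of each other. The means in KO and flox were 5.53 ± 0.132 and 2.48 ± 0.243 CPM for Krt19, another simple keratin. They were 5.23 ± 0.468 and 2.5 ± 0.157 CPM for Cdh17, the liver-intestine cadherin. Muc3, a membrane mucin, averaged 10.2 ± 0.858 CPM in KO and 5.47 ± 0.784 CPM in flox, and Tmigd1, an epithelial membrane protein, 4.85 ± 0.731 CPM in KO and 2.04 ± 0.274 CPM in flox.

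Levels of different genes were compared per kb of exon. Fabp2 led with 28.7 CPM per kb in KO and 13.5 in flox, followed by Fabp6 with 19.5 in KO and 10.7 in flox. Lgals4 came next with 7.93 in KO and 5.32 in flox, then Naaladl1 with 7.22 in KO and 3.84 in flox. In KO the lowest were Malrd1 at 0.175, Anks4b at 0.261 and Cubn at 0.298 CPM per kb. In KO, Lct ranked below all but 4 members at 0.558 CPM per kb, against 0.733 in flox.

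**Figure D3:**
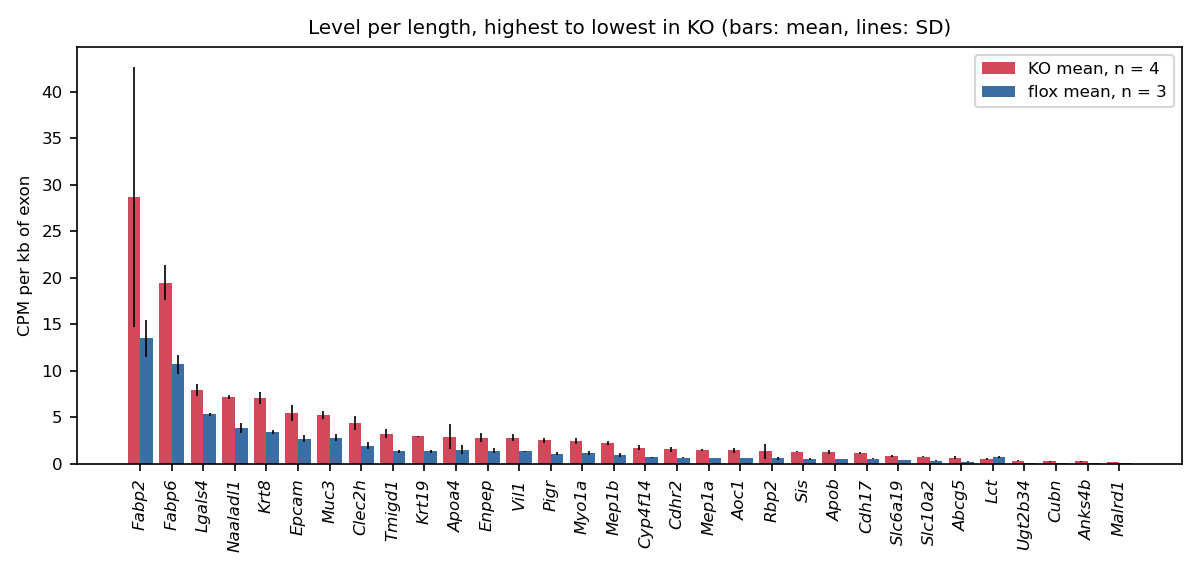
Mean level per kb of exon (bars, KO left of flox) with the SD over libraries (lines), members in falling order of the KO mean. Fabp2 and Fabp6 stand above 10 CPM per kb in both groups and the KO line of Fabp2 is the longest.

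Many members ranked the KO libraries alike. KO 2 was the highest KO library for 22 of 32 members and KO 4 the lowest for 21. Relative to the mean of the KO group on a log2 scale, the median member stood at 0.18 in KO 2 and -0.18 in KO 4, and at -0.01 in both KO 1 and KO 3. In flox the order was less marked, with flox 3 highest for 16 members and flox 2 lowest for 15. The coefficient of variation over libraries had a median of 13.6% in KO (2.38% for Krt19 to 59.9% for Rbp2) and 13.8% in flox (2.06% for Apob to 31.2% for Rbp2).

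**Figure D4:**
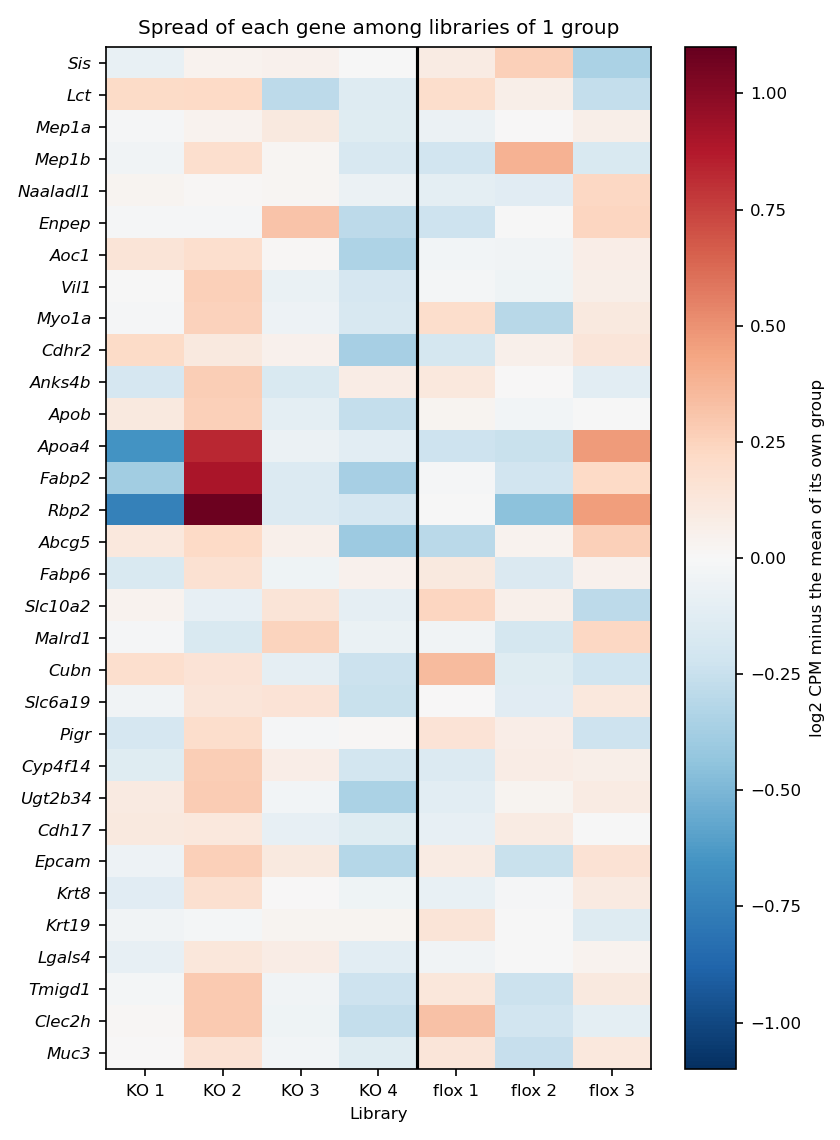
Each cell is a gene's log2 CPM in 1 library minus the mean of that library's own group, with KO libraries left of the line. The column of KO 2 is red for 28 of 32 genes and darkest for Rbp2, Fabp2 and Apoa4, and that of KO 4 is above its mean for 4.

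Other genes of absorption and of the epithelial sheet were read from 7 lists holding 74 non-members, of which 68 were tested. Of these, 56 were higher and 12 lower, with a median log2 fold change of 0.88, and 0 were called by edgeR in either direction. This zero is tied to the choice of members, since the 24 genes called higher over all genes are 20 members and 4 goblet cell genes. The edgeR p before adjustment was under 0.05 for 43 of the 68, beside 14.1% of all genes tested. DESeq2 called 25 of them higher, beside 1.36% of all genes, and 1 lower. In 39 every KO library exceeded every flox library, while in 2 every KO library lay below, a pattern seen in 7.41% of tested genes. The 7 lists were chosen with earlier results of these data known, so all these counts are a description. Adjusted p values in the next sentences are from edgeR over all genes.

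Other brush border enzymes had a median of 0.80 over 10 tested. Anpep, aminopeptidase N, which myeloid cells also carry, stood at 39 ± 6.06 CPM in KO and 23.8 ± 3.23 CPM in flox (adjusted p = 0.111), and Dpp4, a dipeptidase that lymphocytes share, at 49.5 ± 4 CPM in KO and 26.7 ± 12.1 CPM in flox (adjusted p = 0.297). Mgam, the maltase of starch digestion, which neutrophils express, gave -0.17 (adjusted p = 0.522). Tmprss15, the enteropeptidase of the duodenum, had 0 counts in all 7 libraries, which allows up to 0.0580 to 0.0696 CPM by counting error alone. Alpi, intestinal alkaline phosphatase, named after its value was seen, gave 1.12 (adjusted p = 0.111).

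The medians differed between lists. The 8 other microvillus genes, led by Ezr, Eps8 and Pls1, had a median of 0.36, and the 10 other lipid genes, led by Acsl5, Cd36 and Dgat1, a median of 0.18. The 15 tested transporters had a median of 0.91. Their most abundant genes Slc40a1, Slc11a2 and Slc7a7, which carry iron and amino acids in blood cells too, gave -0.16, 0.14 and -0.02, whereas the intestinal sodium-glucose carrier Slc5a1, named after its values were seen, gave 1.1 (adjusted p = 0.0730). Transcription factors had a median of 1.15 over 9 tested, with Klf5 at 0.03, Vdr at 0 and Hnf4a at 0.80. Cdx2, a regulator of intestinal identity named after its values were seen, was read at 0.759 to 0.962 CPM in KO and at 0.359 to 0.427 CPM in flox (1.18, SE 0.24, adjusted p = 0.117). The 4 tested detoxification genes had a median of 1.03, led by Ces2e at 1.02, Cyp2d26 at 0.99 and Cyp2c65 at 1.40, and the 12 epithelial junction genes 0.89, with the highest levels in Tspan8 (0.15), Cldn15 (-0.59) and Cdh1 (0.24).

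Markers of gut position differed in level. The ileal members Fabp6 and Slc10a2 are given above, and the bile acid exporters Slc51a and Slc51b of the same segment, named after their values were seen, averaged 3.17 and 1.04 CPM in KO and 1.64 and 0.554 CPM in flox. The liver-type binding protein Fabp1, abundant in upper small intestine and also named late, was at 0.558 ± 0.159 CPM in KO and 0.179 ± 0.0542 CPM in flox. The duodenal factor Gata4 had 0 to 0.0853 CPM in KO and 0.0199 to 0.0427 CPM in flox. Per kb of exon in KO, Fabp6 stood at 19.5 CPM, Slc51b at 1.47, Fabp1 at 1.01, Slc51a at 0.992, Slc10a2 at 0.771 and Gata4 at 0.00546. Fabp1 thus lay among the ileal genes per length, and the gut segment behind these levels was not tested. On the colon list, 2 of 5 genes were near 0: Aqp8 at 0 to 0.0632 CPM in KO and 0.0427 to 0.120 CPM in flox, and Hoxb13 at 0 to 0.0683 CPM in KO and 0 in flox. The 3 tested colon genes Guca2a, Slc26a3 and Car4, which small intestine also expresses, had a median of 1.04, and the list summed to 3.55 to 4.50 CPM in KO and 1.89 to 2.01 CPM in flox.

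Markers of goblet and Paneth cells, which share the gut epithelium with enterocytes, were higher in KO along with the members. Of 9 goblet cell genes, 7 were tested and all 7 were higher, with a median of 1.24 and sums of 52.7 to 55.7 CPM in KO and 21.1 to 24.2 CPM in flox. Fcgbp rose by 1.48 on the log2 scale (edgeR adjusted p = 0.00044), Clca1 by 1.65 (adjusted p = 0.00212), Muc2 by 1.24 (adjusted p = 0.0175) and Tff3 by 1.32 (adjusted p = 0.0175). For each, every KO library lay above every flox library, a pattern seen in 6.22% of tested genes. Over all genes 0.134% were called higher. Like the other lists, the goblet and Paneth lists were chosen with earlier results of these data known, so these p-values are a description. Over all lists, edgeR called 5 non-members, these 4 goblet genes and the neuronal gene Snap25, which was lower in KO. That count of 5 was 2 to 4 with 1 library left out. Among the other goblet genes Zg16 gave 0.73 (adjusted p = 0.0991). Paneth cell genes were higher in 8 of 8, with a median of 1 and sums of 44.3 to 71.6 CPM in KO and 19.3 to 35.9 CPM in flox. Of these, 0 were called by edgeR and 7 had an unadjusted edgeR p under 0.05, beside 14.1% of all genes tested. DESeq2 called 5 higher, beside 1.36% of all genes. Lyz1, a lysozyme also linked to myeloid cells, led with 23.2 ± 4.95 CPM in KO and 14 ± 3.63 CPM in flox, ahead of the defensin genes Defa24 and Defa21. These sums had another order of libraries than the members: KO 4 was the highest for Paneth genes at 71.6 CPM and the lowest for members at 229 CPM. The part of goblet, Paneth or any other gut cells or RNA in the member levels, and whether marrow cells made these transcripts, was not tested.

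Markers of other organs that share member genes were at or near 0. The liver makes Apob and Abcg5, and its list of 8 summed to 0.385 to 0.933 CPM in KO and 0.299 to 0.406 CPM in flox, with Fgb and Serpina1a at 0 counts in all libraries. Its most abundant gene, Tdo2, averaged 0.369 ± 0.128 CPM in KO and 0.153 ± 0.0724 CPM in flox (log2 fold change 1.27, edgeR adjusted p = 0.274), ahead of Ttr and Hpd. Kidney tubule uses Cubn, Enpep, Slc6a19 and meprin, and its list of 7 summed to 0.253 to 0.432 CPM in KO and 0.359 to 0.641 CPM in flox, with Aqp2 and Kap at 0 counts and Slc34a1, Lrp2 and Umod the most abundant. Exocrine pancreas, which drains into the gut, had Try4 and Ctrb1 at 0 counts in all libraries, and of its 10 genes only Cela1, a broadly expressed elastase, was tested (19 ± 1.24 CPM in KO and 16.7 ± 5.70 CPM in flox, edgeR adjusted p = 0.774). Prss2 and Clps, the next pancreas genes by level, averaged 0.183 and 0.0922 CPM in KO and 0.212 and 0.034 CPM in flox.

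**Figure D5:**
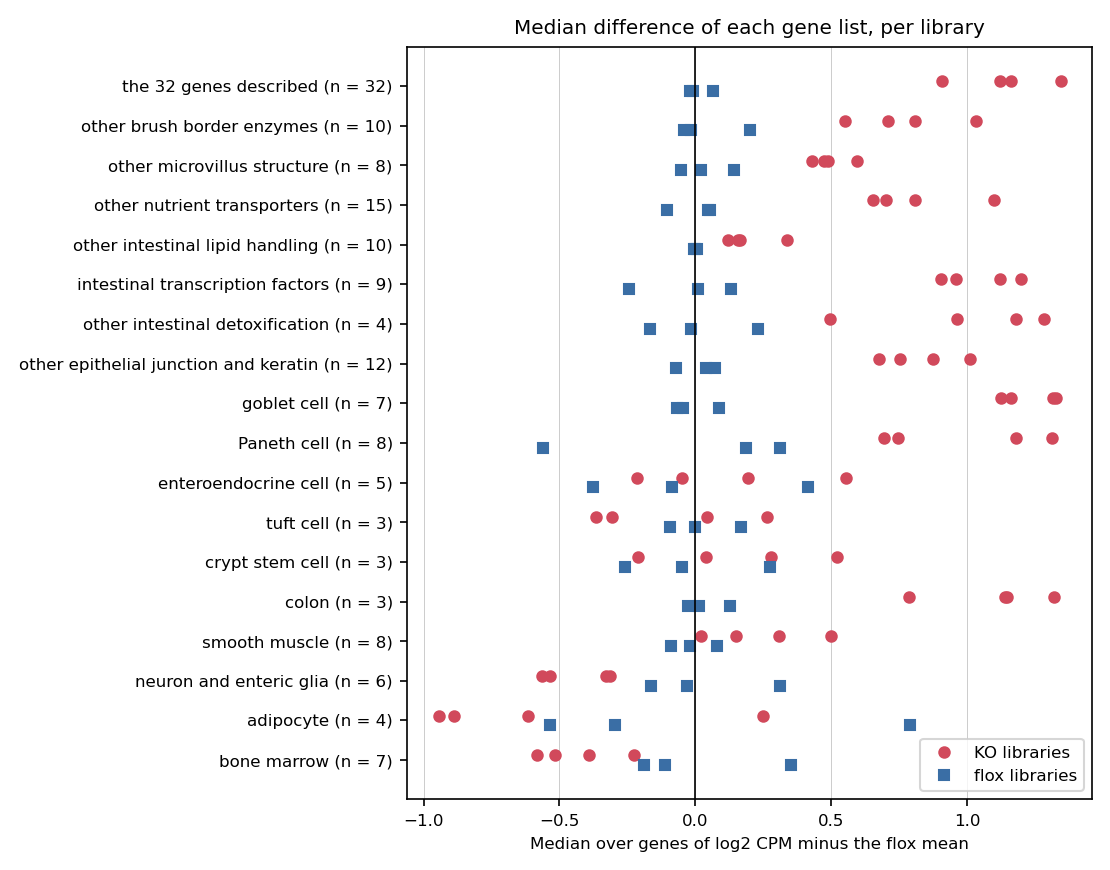
For each gene list, the median over its tested genes of log2 CPM minus the flox mean, with KO libraries as circles above flox libraries as squares. Member, transporter, transcription factor, epithelial junction, goblet, Paneth and colon medians lie at 0.656 or more in each KO library, while enteroendocrine, tuft and crypt medians of the groups overlap.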

How the data were processed

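Raw counts per Ensembl gene, deposited as 1 table with a column per library, were used for 4 KO and 3 flox libraries. Per the submitters' processing notes, the tools were Trimmomatic 0.36 (trimming), STAR 2.5.2b (alignment, build GRCm38) and featureCounts (Subread 1.5.2). The sources used here do not give the annotation release, the strand setting or the treatment of multiply mapped reads, so reads of antisense or similar genes may be shared. Columns were mapped by library code, and 0 columns were unmapped. Symbols and lengths came from GENCODE M21, which matched 49056 of 49315 gene IDs.

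Genes were filtered with filterByExpr (minimum count 10, leaving 17920), scaled with TMM and fitted with robust glmQLFit and glmQLFTest of edgeR 4.0.16 in R 4.3.3, and p-values were Benjamini-Hochberg adjusted (threshold 0.05). SEs are those implied by the F statistic. Log2 CPM used a prior count of 2 for the list medians and the principal components, and no prior count for the deviations of members from their group mean. DESeq2 1.42.0, limma 3.58.1, other scalings and filters, and leaving out each library were alternatives. On counts simulated for these genes, edgeR recovered 58% of 2-fold and 90% of 3-fold changes, and 21 of its 162 calls were false. That false share is above the threshold of 0.05, so the edgeR adjusted p-values may be too low. Between library pairs of a group, chi-square per degree of freedom was 21.2 to 101, so no pair was merged.

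The members and all lists were chosen with earlier results of these data known. Per-library values are printed for up to 4 members per role with the highest mean, and for members whose groups overlap. In each list, called genes, the 3 with the highest mean and those at 0 are named, and other names are said to be chosen later. Some genes of the neuronal and glial and of the kidney lists are not reported here and were left out of their counts. Intervals and floors (3 counts) cover counting error only.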

Additional observations from a re-analysis of the deposited data

Results flagged for a closer look

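Values were screened in the KO group, the only one with 4 libraries, for a library whose gap to its nearest neighbour took up more than 0.829 of the group's range. Chance passes about 1 in 20 such groups, and 11 of 140 genes and sums passed, 1 of them a member. Fabp2 stood at 47.9 CPM in KO 2, against 19.8 to 23.2 CPM in the other KO libraries. Among non-members, KO 2 stood apart for Slc26a3 (1.71 CPM), Slc51b (1.32 CPM), Lrp2 (0.0427 CPM, the lowest) and Gata4 (0.0853 CPM), KO 3 for Cidec (1.20 CPM), Alb (0.0214 CPM) and Umod (0.0214 CPM), and KO 4 for Snap25 (2.94 CPM), Smtn (24.7 CPM, the lowest) and Hoxb13 (0.0683 CPM). The values under 0.1 CPM rest on a few counts.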

How the results depend on the processing

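The summed member level (log2 ratio 0.93 to 1.08) and the median member fold change (1.06 to 1.21) moved by less than the spread between libraries under every alternative run, and 31 of 32 members stayed higher in each. Counts of calls moved. All genes called were 26, against 112 with no filter on low counts, 365 with DESeq2 (63.8% higher, against 92.3%), 13 with limma-voom, 16 without robust dispersion and 2 to 14 when 1 library was left out. Members called were 20, against 28 with DESeq2, with no filter or with library size alone, 8 with limma-voom and 11 without robust dispersion. With 1 library left out, 0 to 9 members were called. Listed non-members called were 5, against 23 with no filter, 42 with DESeq2 and 2 to 4 when 1 library was left out, with 4 without flox 1 and 2 in each other fit. The replicate block, with groups that share only a number (correlations of deviations -0.02, 0.08 and 0.02), gave 4 genes called, 0 members by edgeR (30 with an unadjusted p under 0.05) and 1 listed non-member. The cause of these shifts was not tested. Depth limits the members under 1 CPM, with as few as 14 counts in a library.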

Other observations

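Rarer gut cell types and the gut wall did not share 1 direction. Of 12 enteroendocrine genes 5 were tested, with a median log2 fold change of 0.06 and sums of 2.09 to 3.53 CPM in KO and 1.89 to 3.13 CPM in flox, and the hormone genes Ghrl, Chgb and Nts gave 0.06, 0.08 and 1.32. Of 5 tuft cell genes 3 were tested (median -0.24), with Dclk1 at -0.62, Trpm5 at 0.58, Avil at -0.24 and the cytokine gene Il25 at 0 counts in all libraries. Of the 3 crypt genes Lgr5 gave 1.11, Ascl2 -0.73 and Smoc2 0.16. The crypt sum ran from 7.81 to 10.4 CPM in KO and from 2.89 to 7.07 CPM in flox, with flox 1 the lowest. None of these genes passed the edgeR test over all genes or DESeq2, and the unadjusted edgeR p was under 0.05 for 1 enteroendocrine, 1 tuft and 2 crypt genes, beside 14.1% of all genes tested.

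Smooth muscle genes were higher in 4 of 8 (median 0.26), and these 4 had every KO library above every flox library (6.22% of tested genes). The unadjusted edgeR p was under 0.05 for 6 of the 8 in either direction (14.1% of all genes). By edgeR 0 were called, and DESeq2 called 2 higher (1.36% of all genes). The higher genes, named after their values were seen, were Myh11 (0.90, edgeR adjusted p = 0.111), Des (1.11, adjusted p = 0.153), Actg2 (0.61) and Cnn1 (0.85). The more abundant Smtn, Mylk and Acta2 gave -0.23, -0.37 and -0.10, and Tagln gave -0.10. Of 10 neuronal and glial genes 6 were tested and 4 were lower (median -0.48). Snap25, a synaptic fusion protein, fell by 1.15 (SE 0.15, edgeR adjusted p = 0.0318), and Uchl1 and Ret gave 0.60 and 0.34. The 4 tested fat cell genes were all lower (median -0.45), with sums of 27 to 56.1 CPM in KO and 29.6 to 75.6 CPM in flox, and Cidec at -0.03. Of the 7 marrow genes 6 were lower (median -0.58), with Mpo at -0.58 and S100a8 at -0.40, while the B cell gene Cd79a was higher at 1.04. The fat cell and marrow lists had 0 genes called by edgeR (1 of 4 and 5 of 7 with an unadjusted p under 0.05, beside 14.1% of all genes tested), and DESeq2 called 1 marrow gene, Elane, lower.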
